A study of Homo sapiens with 10 samples.

Results

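The proteasome subunit genes are the protein-coding genes of GENCODE release 29 whose symbols start with PSMA, PSMB, PSMC, PSMD or PSME, and 44 of the 19940 protein-coding genes met this rule. RNA editing was read at sites inside their gene bodies on GRCh38. For APOBEC1, 98 of the 18071 sites in the tables lay in these bodies, 96 were placed in a proteasome gene, and 94 sites in 29 genes had at least 1 read in each of the 5 libraries. For ADARcd, 39 of 16768 sites lay in the bodies, 37 were placed in a proteasome gene, and 23 sites in 12 genes had at least 1 read in each library. By role, the 44 genes comprise 8 of the core alpha ring, 8 of the core beta ring, 3 immunoproteasome beta subunits, 6 base ATPases, 3 other base subunits, 8 lid subunits, 3 assembly chaperones of the base and 4 activators. The remaining gene, PSMC3IP, shares the symbol prefix but encodes a meiotic recombination factor and no subunit. For 10 genes neither deaminase had a site: PSMA6, PSMA8, PSMB8, PSMB11, PSMC3, PSMC3IP, PSMD2, PSMD7, PSMD8 and PSMD13. Since the tables list only positions that were edited, a gene with no site is not shown to be unexpressed or out of reach.

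The cells were HUDEP-2, an immortalised human erythroid progenitor line, and each of 10 constructs was sequenced as 1 library. In the constructs FAM46C (also called TENT5C), which lengthens poly(A) tails without a template, was linked to the cytidine deaminase APOBEC1 through a linker of 7, 27, 52 or 74 aa, or to ADARcd, the catalytic domain of the adenosine deaminase ADAR, through a linker of 7, 27, 47 or 74 aa. GFP joined to the same deaminase by a 7 aa linker was the control for each, so the 7 aa fusions are the ones matched to GFP in linker. All 10 libraries came from doxycycline-induced cells, for 48 h by the sample labels and 24 h by the series text. With 1 library per construct there is no replicate check. Every test below compares the reads of 2 libraries and not the conditions, and the 4 fusions of a deaminase share 1 GFP library.

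The proteasome is the ATP-driven protease that degrades ubiquitin-tagged proteins. Its barrel-shaped core particle, of alpha and beta rings, holds the proteolytic sites, and a regulatory particle of base and lid binds, unfolds and feeds in the substrate. Red cell precursors depend on it while they clear proteins during maturation. APOBEC1 converts C to U, and ADARcd converts A to inosine, which is read as G, so that edits written by a fusion mark transcripts the bait came near.

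The sites on which the results turn are shown as 21 bases of the transcript, 5′ to 3′, with the edited base in capitals. They are sites of genes that differed from GFP or that stand in the authors' deposited tables, together with 1 PSMB1 site close to the transcript end that was chosen after its values were seen, and the letters come from the GENCODE transcripts with T for U. The first set was edited by APOBEC1.
PSMD9, 3′ UTR, chr12:121916581-121916601, plus strand: ctggcaggtaCtggtgtgatt
PSMA2, 3′ UTR, chr7:42917463-42917483, minus strand: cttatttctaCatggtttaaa
PSMA2, 3′ UTR, chr7:42917448-42917468, minus strand: tttaaatcgaCtgtttttaaa
PSMA2, 3′ UTR, chr7:42917433-42917453, minus strand: tttaaaatgaCacttataaat
PSMA3, 3′ UTR, chr14:58271922-58271942, plus strand: taaatttctaCtccagtccaa
PSMB1, 3′ UTR, chr6:170535162-170535182, minus strand: tgattttgtaCtttggaactg
PSMB2, 3′ UTR, chr1:35602955-35602975, minus strand: tcctttccaaCtagctctttc
PSMB3, coding sequence of exon 6 of 6, chr17:38764154-38764174, plus strand: cccgaatggaCtaaccctgtt
PSMB6, 3′ UTR, chr17:4798451-4798471, plus strand: atgccctgtaCtgatgcaaaa
PSMD6, 3′ UTR, chr3:64010597-64010617, minus strand: ttatagcttaCttcacaatgt
PSME3, 3′ UTR, chr17:42843123-42843143, plus strand: gtttgttggaCtgttccactg
The second set was edited by ADARcd, and the first of its windows crosses an exon junction, so that only the edited position has a genome coordinate.
PSMD1, coding sequence of exon 16 of 25, chromosome 2, position 231087176, plus strand: ggttcattctAttcagaaccc
PSMD1, 3′ UTR, chr2:231172670-231172690, plus strand: ctttggttgaAgagaagatat

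All 11 APOBEC1 windows printed have an A just before the edited C. Over the 93 proteasome sites with a C in the transcript, A preceded it at 66 (71.0%), against 63.1% of 16593 sites in all genes. The letters UAC, ending in the edited base and read on the transcript strand, stood at 28 of the 93 proteasome sites (30.1%) and at 20.8% of all sites. U followed the edited C at 50.5% of the proteasome sites and 43.5% of all. Of the 96 APOBEC1 sites placed in proteasome genes, 84 lay in a 3′ UTR (87.5%, against 62.9% of all placed sites), 9 in coding sequence, 1 in a 5′ UTR and 2 in introns. The 37 ADARcd sites were spread more widely, with 12 in 3′ UTRs, 9 in coding sequence, 2 in 5′ UTRs and 14 in introns. Sites of PSMA2, PSMA1, PSMA3, PSMD6 and PSMD9, and of further members, also lie in overlapping or antisense genes, and the labels do not state strand. In all, 25 of the 96 APOBEC1 sites and 5 of the 37 ADARcd sites lie in more than 1 gene.

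Reads over the proteasome sites numbered 3978 to 5233 per APOBEC1 library, and the median site had 38 to 51. ADARcd gave 2254 reads there with GFP and 2327 with the 7 aa fusion, but the 27, 47 and 74 aa libraries had 961, 724 and 763, with medians of 10, 7 and 4 per site. At 56 of the 96 sites of APOBEC1 and 28 of the 37 of ADARcd the library with the most edits had just 2 edited reads, and no site had fewer in its highest library. An edited share is edited reads over edited plus unedited reads, in percent, with 95% Wilson intervals that cover counting error only. Of 12 erythroid marker genes, 6 had reads at APOBEC1 sites, among them HBB and ALAS2, and of 6 markers of other cell types only PTPRC did, with 63 reads over the 5 libraries. ADARcd sites covered 3 of the 12 and 0 of the 6.

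With APOBEC1, proteasome transcripts were edited more in the 3 fusions with shorter linkers than in GFP, and less in the 74 aa fusion. The edited share over all proteasome sites was 1.88% (1.51 to 2.33) in GFP. It was 4.54% (3.98 to 5.16) in the 7 aa fusion, 3.07% (2.58 to 3.65) in the 27 aa fusion, 2.92% (2.50 to 3.42) in the 52 aa fusion and 0.697% (0.502 to 0.968) in the 74 aa fusion. None of the 4 intervals overlaps that of GFP. Without each gene's leading site, GFP had 1.92% (1.47 to 2.51), and the 27 aa share of 2.49% (1.96 to 3.16) and the 52 aa share of 2.64% (2.16 to 3.23) then overlapped it, while the 7 and 74 aa intervals did not. With all sites kept, the ratios to GFP were 2.42 (1.88 to 3.12), 1.64 (1.24 to 2.16), 1.56 (1.19 to 2.04) and 0.372 (0.25 to 0.552). Over the reads of all 5172 genes the same ratios were 1.45, 1.06, 1.02 and 0.408. The 3 shorter fusions thus stood further above GFP in the proteasome genes than in the whole table, with sites not matched by region. The 74 aa ratio of all genes lay inside the proteasome interval. Without each gene's leading site the 7, 27 and 52 aa ratios were 1.69 (1.22 to 2.35), 1.30 (0.907 to 1.85) and 1.37 (0.983 to 1.92). All genes then had 1.42, 0.993 and 0.958. For 7 and 27 aa these lie inside the proteasome interval, and for 52 aa just below it. In GFP itself the proteasome share was below that of all genes, 2.81%, and in the 74 aa fusion below 1.15%. In the other 3 fusions the share of all genes, 4.09%, 2.97% and 2.86%, lay within the proteasome interval. By gene, 22 of 29 members were higher than GFP in the 7 aa fusion (45.8% of all genes were) and 14 in the 27 aa fusion (34.6%). In the 52 aa fusion 20 were higher (30.8%) and in the 74 aa fusion 5 (19.1%). In GFP 9 of the 29 had 0 edited reads, so these were held only through the fusions and could not lie below GFP. The median difference over the 29 members was 2.52 percentage points in the 7 aa fusion, 0 in the 27 aa, 1.29 in the 52 aa and -0.26 in the 74 aa fusion, where the median over all genes was 0, 0, 0 and -0.20.

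Few single genes passed the test. Edited and unedited reads were summed per gene and set against those of GFP by Fisher's exact test (two-sided). P-values were adjusted by Benjamini-Hochberg over all genes, and calls were made where this adjusted value was under 0.05. In the 7 aa APOBEC1 fusion 1 of 29 members was called higher (PSMD9) and 0 lower, where 3.81% and 0.851% of all genes were called. In the 27 aa fusion 1 was higher (PSMA2) and 0 lower, against 1.49% and 1.31%. In the 52 aa fusion 0 were called in either direction by Fisher's exact test, against 1.04% and 0.889%. In the 74 aa fusion 0 were called higher and 1 lower (PSMB2), against 0.0967% and 5.22%. With 29 members each of these shares amounts to fewer than 2 genes, so the counts of called members are near the background. On simulated reads over all genes with sites, the test missed most genes whose odds were changed 4-fold or 0.25-fold. A member without a call is thus not shown to be unchanged.

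More members passed before the adjustment. At an unadjusted p under 0.05 in Fisher's exact test, 8 of 29 were higher in the 7 aa fusion (PSMA1, PSMB3, PSMB4, PSMD6, PSMD9, PSMD11, PSME1 and PSME3; 9.47% of all genes) and 0 lower (3.58%). Of these, PSMB3 and PSMB4 had 0 edited reads in GFP and were held only through the fusions, so GFP could not be the higher library for them. In the 27 aa fusion 4 were higher (PSMA2, PSMB6, PSMD6 and PSMD11; 5.03%) and 0 lower (4.99%). In the 52 aa fusion 2 were higher (PSMD9 and PSME1; 4.39%) and 0 lower (4.47%), and in the 74 aa fusion 0 were higher (0.599%) and 3 lower (PSMA2, PSMB2 and PSMD14; 11.2%). A second exact test asked whether a gene differed from the shift that all genes together showed between the same libraries, and by it PSMA2 in the 27 aa fusion was the 1 member called. The share of all genes called higher and lower by that test was 1.41% and 1.91% for 7 aa, 1.37% and 1.57% for 27 aa, 1.04% and 1.04% for 52 aa, and 0.522% and 0.406% for 74 aa.

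In the alpha ring, which gates entry to the core, PSMA2 (ENSG00000106588, chr7:42916857-42932223, minus strand) had the most edited reads. They numbered 10 of 494 in GFP, 22 of 606 in the 7 aa fusion, 33 of 478 in the 27 aa fusion, 22 of 651 in the 52 aa fusion and 2 of 615 in the 74 aa fusion. The shares were 2.02%, 3.63%, 6.90%, 3.38% and 0.325%, highest in the 27 aa and lowest in the 74 aa library. The 27 aa ratio to GFP was 3.41 (1.70 to 6.84), with an adjusted p of 0.013 by Fisher's exact test, and it was also called against the shift of all genes (adjusted p 0.022). The adjusted p was 0.64, 0.90 and 0.11 for the 7, 52 and 74 aa fusions. Its 3 printed sites were not all highest in the same library. The site at 42917473 had 0 of 97 edited reads in GFP and 3 of 121, 9 of 93, 3 of 126 and 0 of 123 in the fusions in order of linker length. The site at 42917458 had 5 of 85, then 10 of 104, 9 of 81, 5 of 114 and 0 of 106. The site at 42917443 had 0 of 68, then 3 of 79, 3 of 66, 7 of 89 and 0 of 83. The 27 aa library was thus highest at the first and the 52 aa library at the last, and neither site was called.

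PSMA1 and PSMA3, also of the alpha ring, had their highest values in the 7 aa fusion. PSMA1 was edited at 2 of 255 reads in GFP (0.784%), 10 of 259 in the 7 aa fusion (3.86%), 2 of 250 in the 27 aa, 7 of 276 in the 52 aa and 1 of 321 in the 74 aa fusion, with an adjusted p of 0.33 for 7 aa. Its leading site (3′ UTR, 14505012 on chromosome 11) had 0 of 76 edited reads in GFP and 5 of 88 in the 7 aa fusion. PSMA3 had 7 of 177, then 11 of 170, 8 of 166, 9 of 201 and 3 of 208 reads edited, and its 7 aa share of 6.47% against 3.95% in GFP was not called (adjusted p 0.87, Fisher's exact test). Of the other alpha ring genes, PSMA4, PSMA5 and PSMA7 had 2 to 12 edited reads in all.

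In the beta ring, PSMB2 (ENSG00000126067, chr1:35599544-35641844, minus strand), a non-catalytic subunit, had 14 sites and the most reads of any member. Edited reads were 19 of 526 in GFP, 31 of 560 in the 7 aa fusion, 15 of 578 in the 27 aa, 24 of 660 in the 52 aa and 4 of 674 in the 74 aa fusion. These are shares of 3.61%, 5.54%, 2.60%, 3.64% and 0.593%, so GFP lay in the middle of the range and the 74 aa library at its foot. The 74 aa ratio was 0.164 (0.0562 to 0.480), with an adjusted p of 0.0054 by Fisher's exact test. It was not called against the shift of all genes (adjusted p 0.73). The leading site, at 35602965, had 5 of 42, 6 of 43, 4 of 56, 7 of 47 and 1 of 60 edited reads.

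PSMB1, PSMB3, PSMB4, PSMB5 and PSMB6 were above GFP in value in each of the 3 shorter fusions, with no call. PSMB3, PSMB4 and PSMB5 had 0 edited reads in GFP, and no proteasome site had fewer than 2 in its highest library. Their sites were thus held only through edits in the fusions, so GFP could not be the higher library there. PSMB3, a structural subunit, had 0 of 128 edited reads in GFP, which allows a share of up to 2.34%, and 10 of 162 (6.17%), 5 of 151 (3.31%), 3 of 211 (1.42%) and 1 of 188 (0.532%) in the fusions. Its 7 aa adjusted p was 0.058 by Fisher's exact test, just outside the threshold, and its leading site, at 38764164, had 0 of 86 edited reads in GFP and 8 of 112 in the 7 aa fusion. PSMB1 had 2 of 105, then 10 of 143, 6 of 103, 7 of 219 and 3 of 182 edited reads (1.90%, 6.99%, 5.83%, 3.20% and 1.65%). PSMB6, which carries the caspase-like activity, had a single site with 1 of 45 reads edited in GFP and 5 of 40, 6 of 32, 5 of 65 and 1 of 45 in the fusions. The 27 aa share of 18.8% was the highest of any member with more than 20 reads, with an adjusted p of 0.30. PSMB5, which carries the chymotrypsin-like activity, had 0 of 87, 3 of 75, 2 of 74, 1 of 97 and 0 of 97. Of the immunoproteasome subunits only PSMB10 had a usable APOBEC1 site, with 2 edited reads, both in the 7 aa library.

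Among the base ATPases, which unfold the substrate, 4 genes had usable APOBEC1 sites, and none was called. PSMC2 had 3 of 183 reads edited in GFP, 8 of 274 in the 7 aa fusion, 1 of 200 in the 27 aa and 0 of 201 and 0 of 200 in the 52 and 74 aa fusions. PSMC6 had 6 of 197, 9 of 196, 3 of 139, 4 of 168 and 1 of 196, so that both were above GFP with 7 aa and below it with the 3 longer linkers. PSMC4 had 0 of 67, 2 of 62, 0 of 60, 1 of 83 and 0 of 72, above GFP with 7 and 52 aa. PSMC5 had 2 edited reads in all, both in the 52 aa library. PSMD1, the large scaffold subunit of the base, was below GFP in all 4 APOBEC1 fusions, with 3 of 108, 2 of 115, 0 of 79, 0 of 118 and 0 of 107. PSMD4, a receptor for ubiquitin chains, was above GFP in all 4, with 0 of 75, 1 of 62, 1 of 67, 2 of 105 and 3 of 86. Neither rests on more than 3 edited reads in a library, and the lowest unadjusted p of the 8 tests was 0.11. PSMC4, PSMC5 and PSMD4 had 0 edited reads in GFP and were held only through the fusions, so they could not lie below it.

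In the lid, PSMD6 and PSMD11 were above GFP in all 4 fusions. PSMD6, a structural lid subunit, had 1 of 133 reads edited in GFP (0.752%), 14 of 227 in the 7 aa fusion (6.17%), 7 of 124 in the 27 aa (5.65%), 8 of 248 in the 52 aa (3.23%) and 4 of 244 in the 74 aa (1.64%). The fusions ranked by linker length, the 7 aa fusion highest and the 74 aa fusion nearest to GFP, with adjusted p of 0.16 and 0.38 for the 7 and 27 aa fusions. PSMD11, another structural lid subunit, had 1 of 268, then 9 of 275, 7 of 223, 5 of 263 and 4 of 239 (0.373%, 3.27%, 3.14%, 1.90% and 1.67%), with adjusted p of 0.23 and 0.36. PSMD14, the deubiquitinating enzyme of the lid, had 5 of 194, 5 of 253, 2 of 201, 9 of 299 and 0 of 241, so that GFP lay within the range of the fusions. In the 7, 27 and 74 aa libraries PSMD14 was lower than GFP, unlike PSMD6 and PSMD11, and no test compared the genes with each other.

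The assembly chaperones help the base to form and are not part of the finished particle. PSMD9 (ENSG00000110801, chr12:121888731-121918297, plus strand) had 2 of 147 reads edited in GFP, 19 of 187 in the 7 aa fusion, 9 of 181 in the 27 aa, 12 of 145 in the 52 aa and 1 of 196 in the 74 aa. These are 1.36%, 10.2%, 4.97%, 8.28% and 0.510%, with 3 fusions above and the 74 aa fusion below GFP. The 7 aa ratio was 7.47 (1.77 to 31.5), with an adjusted p of 0.024 by Fisher's exact test, and 0.76, 0.17 and 1 for the other fusions. Its site at 121916591 is thinly read, with 1 of 14 reads edited in GFP and 11 of 19, 5 of 25, 5 of 14 and 1 of 28 in the fusions. Without that site the 7 aa call was lost (adjusted p 0.43), as it was against the shift of all genes (adjusted p 0.15). The second site, 121916518, had 0 of 67, 6 of 84, 4 of 78, 4 of 65 and 0 of 84. PSMD10 (gankyrin), also a chaperone of the base, had 2 of 132, 8 of 271, 2 of 166, 8 of 243 and 0 of 158.

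Among the activators, which cap the core in place of the regulatory particle, the members lay on different sides of GFP. PSME1, an interferon-inducible activator subunit, had 1 of 201 reads edited in GFP (0.498%) and 10 of 226 (4.42%), 5 of 170 (2.94%), 10 of 254 (3.94%) and 2 of 244 (0.820%) in the fusions, all above GFP with adjusted p of 0.16, 0.69, 0.41 and 1. PSME3, the nuclear activator, had 2 of 110, 10 of 100, 1 of 77, 6 of 103 and 2 of 113, with no call in the 7 aa fusion, where its share was highest (adjusted p 0.18). Its leading site, at 42843133, had 0 of 53 in GFP and 7 of 45 in the 7 aa fusion. PSME2, the partner of PSME1, was below GFP in all 4 fusions, with 4 of 58, 3 of 62, 0 of 48, 3 of 60 and 1 of 55. PSME4, the large single-chain activator, was also below GFP in all 4, with 4 of 145, 2 of 120, 0 of 84, 0 of 120 and 0 of 129. In all, 5 members lay above GFP in all 4 fusions (PSMB3, PSMD4, PSMD6, PSMD11 and PSME1; 4.81% of all genes did) and 3 lay below in all 4 (PSMD1, PSME2 and PSME4; 26.1% of all genes did). PSMB3 and PSMD4 had 0 edited reads in GFP and were held only through the fusions, so they could not lie below it.

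**Figure D1:**
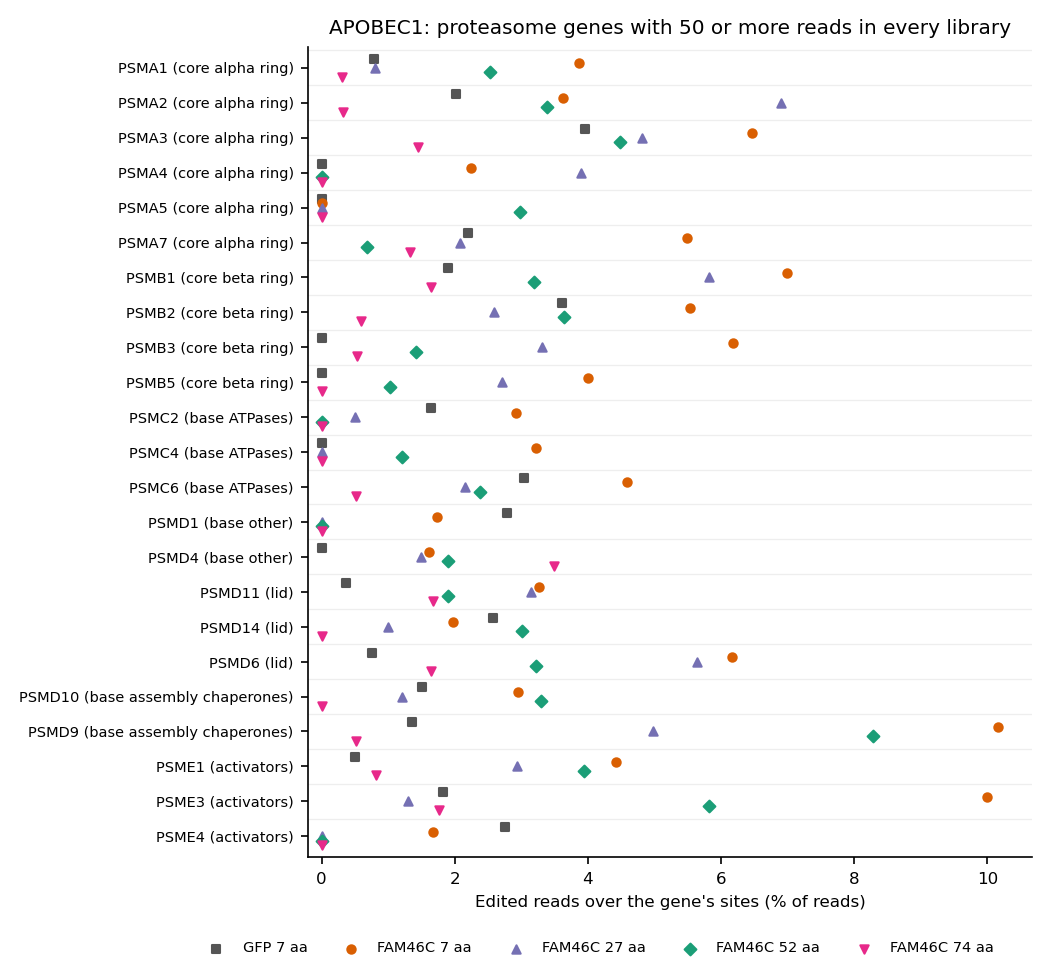
Percent of reads edited per proteasome gene in the 5 APOBEC1 libraries, for the 23 genes with 50 or more reads in every library, ordered by role. PSMD9 reaches 10.2% in the 7 aa fusion, PSMA2 6.90% in the 27 aa fusion, and GFP is at 0 for PSMB3. The PSMB3 sites were held only through edits in the fusions.

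The core and the regulatory particle were set side by side within each library. With APOBEC1 the core, with 13 genes, had shares of 2.03%, 4.95%, 4.0%, 2.98% and 0.632% in GFP and the 7, 27, 52 and 74 aa fusions. The regulatory particle, with 10 genes, had 1.61%, 3.38%, 1.83%, 2.06% and 0.834%. The core value was the higher in 4 of the 5 libraries, GFP included. The intervals of the 2 particles were apart only in the 27 aa fusion, at 3.24 to 4.93 for the core and 1.20 to 2.78 for the regulatory particle. That gap rested on PSMA2: without this gene the 27 aa core share was 3.14% (2.40 to 4.11), which overlaps the regulatory interval. Relative to GFP, the core ratios were 2.44, 1.97, 1.47 and 0.311 and the regulatory ratios 2.09, 1.13, 1.28 and 0.517, with intervals that overlap in each fusion. The assembly chaperones had shares of 1.43%, 5.90%, 3.17%, 5.15% and 0.282%. Their 7 aa ratio of 4.11 (1.45 to 11.6) was higher in value than those of the core (2.44, 1.72 to 3.44) and the lid (2.68, 1.28 to 5.61), and its interval overlaps both.

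**Figure D2:**
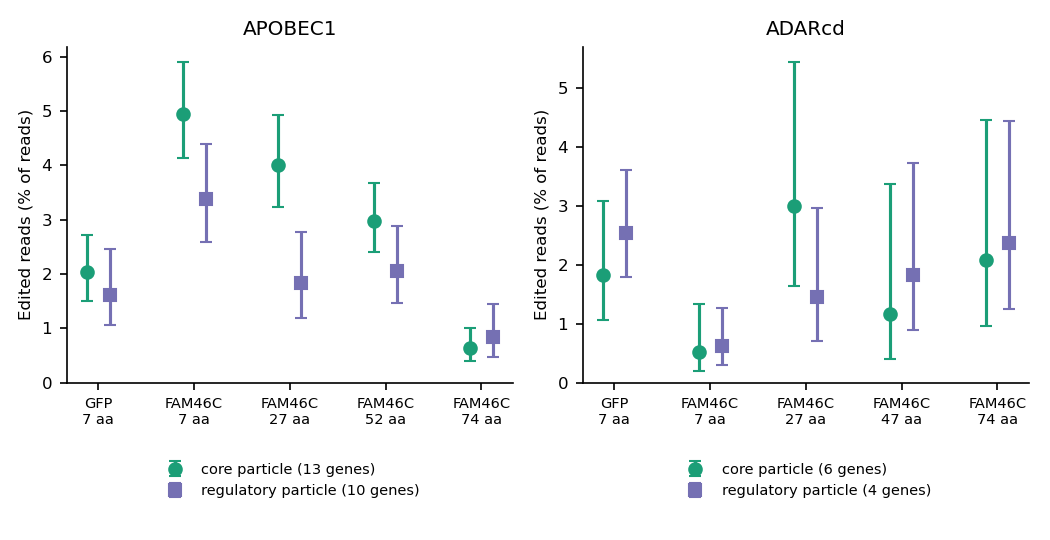
Percent of reads edited over the sites of core particle genes (circles) and regulatory particle genes (squares) in each library, with 95% Wilson intervals. The intervals are apart only for the 27 aa APOBEC1 fusion, 4.0% against 1.83%.

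Distance to the transcript end was taken along the spliced transcript. The 93 exonic APOBEC1 sites of proteasome genes lay a median of 557 nt from the end, against 1056 nt over 16552 sites of all genes. In the 7 aa fusion the share under 100 nt was 5.81% against 1.90% in GFP, a ratio of 3.06 (1.89 to 4.96) over 27 sites. The ratio was 3.43 (1.59 to 7.39) from 100 nt to under 400 nt, 1.84 (1.25 to 2.70) from 400 nt to under 1600 nt and 2.49 (1.33 to 4.67) at 1600 nt or more. In all genes the 7 aa ratio was 3.33, 1.92, 1.13 and 1.12 in the same order. Thus under 100 nt the proteasome ratio was close to that of all genes, and in the 3 bins farther out it was higher in value, with the ratio of all genes inside the proteasome interval from 100 nt to under 400 nt only. The proteasome intervals overlap between bins. A single gene carries the farthest bin: without PSMD9 the 7 aa ratio there was 1.44 (0.679 to 3.05). In the 27 aa fusion the ratio from 400 nt to under 1600 nt was 1.30, and without PSMA2 it was 0.530.

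The annotated end used matters for these genes. The PSMA2 sites lay 584 to 637 nt from the end of the preferred transcript, but 28 to 81 nt from the end of a shorter annotated one. By the shortest distance to any annotated end of the gene, 47 of the 93 sites lay under 100 nt, where the fusions had ratios of 2.87 (2.01 to 4.11), 2.27 (1.55 to 3.33), 1.88 (1.30 to 2.73) and 0.523 (0.317 to 0.863) in order of linker length, and all genes 2.44, 1.76, 1.58 and 0.508. At 1600 nt or more only 6 sites were left, with a 7 aa ratio of 0.454 (0.138 to 1.49). From 400 nt to under 1600 nt, which then holds the PSMD9 sites, the 7 aa ratio was 2.78 (1.67 to 4.63) against 1.01 in all genes.

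With ADARcd the edited share over the proteasome genes was lower than GFP in the 7 aa fusion, and the intervals of the other 3 fusions overlapped that of GFP. The edited share was 1.95% (1.45 to 2.61) in GFP, 0.568% (0.332 to 0.969) in the 7 aa fusion, 1.79% (1.12 to 2.85) in the 27 aa, 1.95% (1.17 to 3.25) in the 47 aa and 2.26% (1.41 to 3.59) in the 74 aa fusion. The 7 aa interval lies below that of GFP, and the other 3 overlap it. That separation rests on PSMD1: without this gene GFP had 1.23% (0.804 to 1.87) and the 7 aa fusion 0.613% (0.343 to 1.10), which overlap. It was also lost without each gene's leading site. The ratios to GFP were 0.292 (0.157 to 0.541), 0.920 (0.527 to 1.6), 1.00 (0.552 to 1.82) and 1.16 (0.666 to 2.02), and in all 3956 genes they were 0.517, 1.16, 1.07 and 1.24. Without PSMD1 the proteasome ratios were 0.5 (0.242 to 1.03), 1.53 (0.784 to 3.0), 1.84 (0.912 to 3.72) and 1.55 (0.752 to 3.20), so that the 27 aa value changed side and all 4 intervals included 1. Each ratio of all genes lies within the proteasome interval over the 12 genes. The difference of the 7 aa fusion was thus shared by the whole table in its direction.

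In the 7 aa ADARcd fusion 1 of 12 members was called lower (PSMD1) and 0 higher, where 3.19% and 0.0506% of 3956 genes were called by Fisher's exact test. In the 27, 47 and 74 aa fusions 0 members were called in either direction. All genes gave 0.455% higher and 0.43% lower with 27 aa, 0.379% and 0.379% with 47 aa, and 0.354% and 0.177% with 74 aa. At an unadjusted p under 0.05 in Fisher's exact test, 0 were higher (0.531% of all genes) and PSMD1 was lower (8.01%) with 7 aa, and PSMC6 was higher (5.86%) and 0 lower (1.34%) with 27 aa. PSMC6 and PSME4 were higher (7.36%) and PSMD1 lower (1.54%) with 47 aa, and PSME4 was higher (7.31%) and 0 lower (0.809%) with 74 aa. The used sites of PSMC6 and PSME4 had 0 edited reads in GFP, and no proteasome site had fewer than 2 in its highest library. They were thus held only through edits in the fusions, so GFP could not be the higher library there. Against the shift of all genes 0 members were called in the 4 fusions, where 0.278% and 0.784% of genes were called higher and lower with 7 aa, 0.354% and 0.43% with 27 aa, 0.303% and 0.404% with 47 aa, and 0.228% and 0.303% with 74 aa.

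PSMD1 (ENSG00000173692, chr2:231056864-231172827, plus strand) had 22 of 499 edited reads in GFP, 2 of 496 in the 7 aa fusion, 3 of 206 in the 27 aa, 2 of 187 in the 47 aa and 6 of 175 in the 74 aa fusion. The shares were 4.41%, 0.403%, 1.46%, 1.07% and 3.43%, all 4 fusions below GFP. The 7 aa ratio was 0.0915 (0.0216 to 0.387) with an adjusted p of 0.0019 by Fisher's exact test, and the adjusted p was 0.61, 0.52 and 1 for the others. With ADARcd 5 of 12 members lay below GFP in all 4 fusions (PSMA1, PSMB5, PSMB9, PSMD1 and PSMD12; 20.9% of all genes did) and 0 lay above in all 4 (1.87%). PSMA1, PSMB5 and PSMB9 had 1 used site each, with 2 of 22, 2 of 3 and 2 of 13 reads edited in GFP. The fusions had 0 edited reads at these sites, and no proteasome site had fewer than 2 in its highest library. These genes were thus held through GFP alone, which fixed their side of GFP. Of the 10 genes with sites for both deaminases, PSMD1 was the 1 below GFP in all 8 fusions. Its coding site at 231087176 had 15 of 242 reads edited in GFP (6.20%), 0 of 238 in the 7 aa fusion, which allows up to 1.26%, 0 of 98 in the 27 aa, 1 of 90 in the 47 aa and 6 of 75 in the 74 aa (8.0%). The site was thus highest in 74 aa and GFP, and its 47 aa interval (0.196 to 6.03) overlapped that of GFP (3.79 to 9.97). It was the only proteasome site called, lower in the 7 aa fusion with an adjusted p of 0.0099 by Fisher's exact test over 13300 sites, of which 0.677% were called lower. Without it the call of PSMD1 was lost (adjusted p 0.94), and against the shift of all genes the gene had an adjusted p of 0.26. The 3′ UTR site at 231172680 had 6 of 114, 1 of 116, 1 of 52, 1 of 40 and 0 of 40.

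PSMB2 was edited by ADARcd in each library. Edited reads were 7 of 385 in GFP, 4 of 425 in the 7 aa fusion, 8 of 168 in the 27 aa, 1 of 119 in the 47 aa and 6 of 130 in the 74 aa fusion, so that the 27 and 74 aa libraries were above GFP and the 7 and 47 aa below, with no call. The 21-base window around its site at 35602692 also occurs in annotated transcripts of 29 other genes, and those around the PSMD12 sites at 67338637 and 67338651 in transcripts of 859 and 926. The ADARcd counts of PSMB2 and PSMD12, and the pooled shares that hold them, are uncertain for this reason, and other PSMB2 windows are shared more widely than the first. PSMC6 had 0 of 364 edited reads in GFP and 0 of 346 in the 7 aa fusion, which allow up to 0.824% and 0.867%, and 3 of 140 (2.14%), 2 of 103 (1.94%) and 2 of 108 (1.85%) in the longer fusions. Its leading site, 52718238 on chromosome 14 (coding, exon 9 of 14), held 5 of those 7 edits. The 21-base window around that site also occurs in annotated transcripts of 3 other genes, so the ADARcd counts of PSMC6 are uncertain too. PSME4 had 0 of 248, 0 of 277 and 0 of 91 in GFP and the 7 and 27 aa fusions, then 2 of 48 and 2 of 63 in the 47 and 74 aa fusions. Both edits of each library came from 1 coding site, 53898305 with 47 aa and 53908336 with 74 aa. PSMA3, PSMB10 and PSMD11 each had 2 edited reads in all, in 1 library each, the 47 aa, 27 aa and 47 aa fusion. The PSMA3 position is a T and not an A in the transcript, and so is the PSMD5 position 120842752. Both positions also lie in another annotated gene, as does the PSMB10 site. Without the PSMA3 and PSMD5 positions the pooled 47 aa share was 1.59% (0.864 to 2.90), against 2.16% in GFP. Its ratio to GFP was then 0.733 (0.371 to 1.45).

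**Figure D3:**
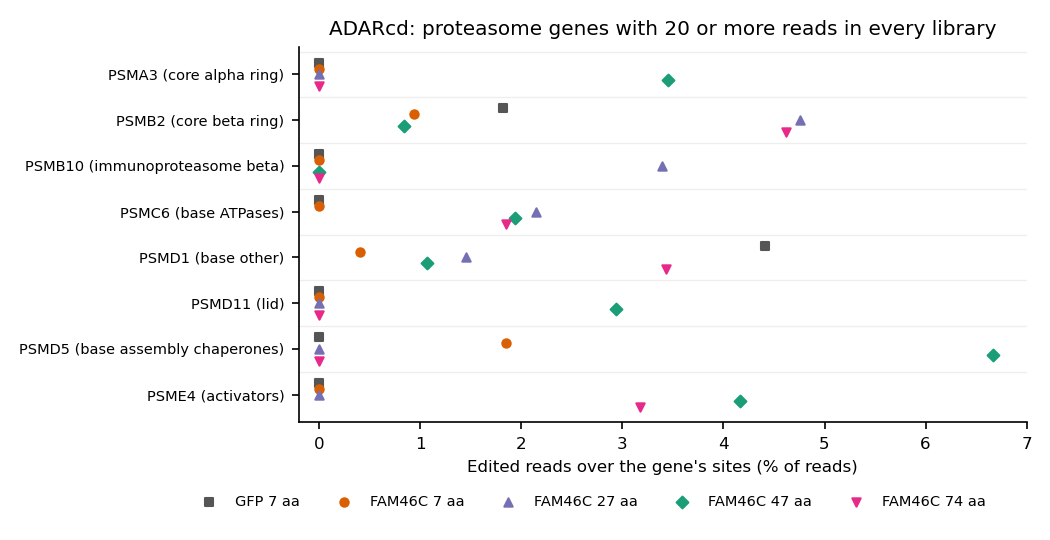
Percent of reads edited per proteasome gene in the 5 ADARcd libraries, for the 8 genes with 20 or more reads in every library. PSMD1 is highest in GFP, at 4.41%, while PSMC6 and PSME4 are at 0 in GFP and at 1.85% to 4.17% in the 74 and 47 aa fusions. The used sites of PSMC6 and PSME4 were held only through edits in the fusions.

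The core and regulatory shares with ADARcd were 1.82% and 2.55% in GFP, 0.522% and 0.616% in the 7 aa fusion, 3.0% and 1.45% in the 27 aa, 1.17% and 1.83% in the 47 aa, and 2.08% and 2.37% in the 74 aa fusion. All 5 pairs of intervals overlap, and without PSMD1 the regulatory share of GFP was 1.18%. No usable exonic ADARcd site lay under 100 nt from the preferred transcript's end, and the median distance of the 21 sites was 1058 nt, against 2026 nt for all genes. From 400 nt to under 1600 nt, with 13 sites, the 7 aa ratio was 0.296 (0.141 to 0.622), against 0.395 in all genes. The other bins hold 3 and 5 sites.

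No APOBEC1 site of a proteasome gene was called. Site by site, with Fisher's exact test over 17126 to 17185 sites, 0 of 94 were called with each fusion, where 0.378%, 0.111%, 0.0876% and 0.00582% of sites were called higher and 0.0116%, 0.00583%, 0.0117% and 0.0524% lower in order of linker length. Before adjustment, at p under 0.05, the counts of proteasome sites above GFP were 5, 3, 1 and 0 (2.47%, 1.26%, 0.952% and 0.099% of all sites), and those below were 0, 0, 0 and 1 (0.786%, 0.653%, 0.636% and 1.94%). With ADARcd, 33, 25, 28 and 30 proteasome sites could be tested, and beside the PSMD1 site with 7 aa 0 were called, where 0%, 0.0869%, 0.0102% and 0.0204% of all sites were called higher and 0.677%, 0.125%, 0.0915% and 0.0204% lower. Before adjustment 0, 2, 1 and 2 of these were higher (0.271%, 2.17%, 3.7% and 3.69% of all sites) and 2, 1, 0 and 0 lower (2.54%, 0.54%, 0.529% and 0.327%). The authors' deposited tables, which give each listed site an unadjusted p-value, name 5 proteasome genes among 384 for the 7 aa APOBEC1 fusion (PSMA1, PSMA3, PSMB3, PSMD9 and PSME3). The authors' deposited tables name 3 of 201 for 27 aa (PSMA2, PSMB6 and PSMD6), 2 of 168 for 52 aa (PSMA2 and PSME3) and 0 of 25 for 74 aa. For ADARcd the authors' deposited tables name 0 of 31, 2 of 239 (PSMB2 and PSMC6), 1 of 374 (PSME4) and 2 of 362 (PSMB2 and PSME4). As shares of the genes listed these are 1.30%, 1.49%, 1.19% and 0% for APOBEC1, and 0%, 0.837%, 0.267% and 0.552% for ADARcd. Proteasome genes were 29 of the 5172 genes with a used APOBEC1 site and 12 of the 3956 with a used ADARcd site. Whether the listed counts differ from these was not tested. The lowest deposited p was 0.00131, in the authors' deposited table for the 27 aa APOBEC1 fusion, at the PSMA2 site 42917473.

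Other genes of the ubiquitin and proteasome system were read from a list of 32, among them assembly factors, ubiquitin genes and shuttle factors. Of 24 with APOBEC1 sites, 1 was called higher in each fusion and 0 lower, and of 8 with ADARcd sites 0 were called, by Fisher's exact test. The gene was UBB, a polyubiquitin gene, in all 4. It had 5 of 821 edited reads in GFP (0.609%) and 110 of 929 (11.8%), 71 of 783 (9.07%), 72 of 867 (8.30%) and 25 of 863 (2.90%) in the fusions, with adjusted p of 1.6e-22, 1.4e-14, 3.1e-13 and 0.0091. GFP was the lowest library and the fusions ranked by linker length, the 7 aa fusion highest, with no test between fusions. Its sequence is shared in part with other ubiquitin genes and pseudogenes, so its counts are uncertain.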

How the data were processed

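Editing was measured by RNA sequencing in 10 HUDEP-2 libraries, 1 per construct. The authors deposited, per library, counts of reads with the reference and with the edited base at each site, not normalised, and per fusion a table of sites with an unadjusted p-value, per the file headers. Per the submitters' processing notes the build was GRCh38, and Picard 2.27.1, SAMtools 1.18 and HISAT2 2.2.1 were used in a role and order that the notes do not give. The rule that chose the sites is not stated there or in the labels, and 48 columns of the site tables were not used.

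Sites were placed in GENCODE 29 basic genes, preferring transcripts with the target base and then protein-coding genes, since the labels do not state strand. A site was used where each of the 5 libraries with its deaminase had at least 1 read. Reads were summed per gene and tested by Fisher's exact test against GFP (SciPy 1.17.1, Python 3.11.15, pandas 2.3.3, NumPy 2.4.6, matplotlib 3.10.9). The procedure was checked on simulated reads at the depths of all genes with sites. For 7 aa APOBEC1 it recovered 11 of 100 genes with odds changed 4-fold and 2 of 100 with odds changed 0.25-fold. For 7 aa ADARcd it recovered 9 and 1 of 100. Most changes of that size were thus missed. Intervals are 95% Wilson, or on the log scale for ratios. A count of 0 allows up to 3 counts. Reads carry no molecular identifiers that the sources mention, so intervals cover counting error only.

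The proteasome genes and the lists were chosen with earlier results of these data known. Genes named with all values were those called, the 6 with most reads, the 3 at each extreme of the median difference among genes with at least 50 (APOBEC1) or 20 (ADARcd) reads per library, and those in at least 2 deposited tables. Further members were named after their values were seen, to describe each role. One sequence and the result at its site are not reported here.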

Additional observations from a re-analysis of the deposited data

How the results depend on the processing

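No paired analysis was possible because the labels give no replicate numbers and each construct has 1 library, so no library could be left out either. Leaving out the proteasome gene with the most edited reads, the shortest annotated end and the core without PSMA2 were chosen after seeing the data; the other alternatives were planned. Of the summary values, 357 stayed within their interval or count and 40 moved. Among single genes 511 values kept their side of the threshold, 5 lost it, and 0 called values changed direction. PSMA2 in the 27 aa APOBEC1 fusion kept its call under each alternative run. Against the odds ratio of all reads, the members called were 0 lower for 74 aa APOBEC1, 0 lower for 7 aa ADARcd and 0 higher for 7 aa APOBEC1. With at least 10 reads per site, 2 members were higher for 7 aa APOBEC1 (PSMB3 added), and the regulatory share of 7 aa ADARcd was 0.19%. Without each gene's leading site, 0 members were called higher for 7 aa APOBEC1 and 0 lower for 7 aa ADARcd. The pooled shares were then 3.26% for 7 aa and 2.49% for 27 aa APOBEC1, and 0.989% for 7 aa and 0.772% for 47 aa ADARcd, and the 27 and 52 aa APOBEC1 and 7 aa ADARcd intervals then overlapped those of GFP. Core shares were 3.48% for 7 aa APOBEC1 and 1.46% for 27 aa ADARcd. Regulatory shares were 2.58% for 7 aa APOBEC1, and 1.56%, 3.37%, 0.671% and 0% for 7, 27, 47 and 74 aa ADARcd. These fall in part by construction, since the most edited site is removed. With no minimum of reads, ADARcd pooled shares were 2.97% for GFP and 1.03% for 7 aa, and core shares 4.14% and 1.504%. Without PSMD1 the ADARcd GFP share was 1.23% pooled and 1.178% regulatory, which ended the separation of 7 aa ADARcd from GFP and moved the 27 aa ratio from 0.920 to 1.53. Without PSMB2 the APOBEC1 GFP core share was 1.51%, and without PSMA2 the 27 aa core share was 3.14%. Without the leading gene of a distance bin, ADARcd shares from 100 nt to under 400 nt were 1.32% for GFP, 0% for 7 aa and 0% for 47 aa, that from 400 nt to under 1600 nt was 1.15% for 27 aa, and those at 1600 nt or more were 0% for GFP and 27 aa. For APOBEC1 they were 1.39% for 27 aa from 400 nt to under 1600 nt, and 2.43% for 7 aa and 1.01% for 52 aa at 1600 nt or more. By the shortest distance, shares at 1600 nt or more were 1.18% for 7 aa, 1.08% for 27 aa, 0.813% for 52 aa and 0% for 74 aa APOBEC1, and that of 7 aa from 400 nt to under 1600 nt was 5.98%. Where no construction is named, the cause was not tested. Depth limits the ADARcd fusions with longer linkers most, where a median proteasome site had 4 to 10 reads and no gene had more than 8 edited reads in a library.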
